A study of Mus musculus with 30 samples.

Results

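The odorant receptor (OR) genes described here are the last ones along mouse chromosome 2, from Olfr1151 onward in the order of the table that gives OR names and positions. They are 67 of the 564 OR genes counted, and they form 2 stretches. The distal part of the large OR cluster holds 52 of them, from Olfr1151 to Olfr1270 over 2.29 Mb. After a gap of 21.1 Mb a far cluster holds the other 15, from Olfr1275 to Olfr1317 over 0.912 Mb. In the RefSeq annotation of build GRCm38.p6 the distal part runs from the start of Olfr1151 at position 87857177 to the end of Olfr1270 at 90150036, and the far cluster from the start of Olfr1275 at 111230853 to the end of Olfr1317 at 112142897. All 67 are protein coding there, 22 lie on the forward strand and 45 on the reverse strand, and the naming table puts them in 15 MOR families, groups of receptors of similar sequence. One more gene of that table, Olfr1245, lies in the same range and is not used here.

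RNA of whole olfactory mucosa was counted with NanoString probes in 5 groups of 6 mice, all 21 days old, with 1 μg of RNA of 1 mouse in each lane. On cartridge MK38 were 6 wild-type mice of strain 129SvEvTac (background strain 129S6/SvEvTac) bought from Charles River Laboratories, called wild-type 129 mice below, and 6 homozygous ΔOlfr7Δ mice of an inbred 129SvEv colony, in which chromosome engineering removed the Olfr7 cluster of OR genes. On cartridge MK29 were 6 ΔHxΔP mice, homozygous for the loss of both the H element and the P element, and 6 wild-type mice of their companion strain. On cartridge MK37 were 6 wild-type mice of the companion strain of ΔH. Both cartridges carried mice of a mixed C57BL/6J x 129SvEv background. All deletions lie on other chromosomes, so that no gene described here was deleted in any group. Females numbered 4 among the wild-type 129 mice, 2 among the ΔOlfr7Δ, 3 among the MK29 wild-type, 1 among the ΔHxΔP and 4 among the MK37 wild-type mice, and the others were males.

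A mature olfactory sensory neuron in the nose expresses 1 OR gene from 1 of its alleles, and the receptor it makes, a G protein-coupled receptor in the membrane of the cilia, decides which odorants the cell detects. The count of an OR transcript in whole mucosa therefore follows the number of neurons that chose the gene and the RNA each of them holds, and in bulk RNA fewer cells and less RNA per cell cannot be told apart. OR genes lie in clusters along the chromosomes, their coding sequence usually sits in a single exon, and relatives in sequence tend to be neighbours. The H and P elements are enhancers that act on OR genes of their own clusters. Among the members, Olfr73 is the eugenol receptor mOR-EG and Olfr74 is mOR-EV, a receptor for vanillin-like odorants. Most of the others have no odorant that can be named here.

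Each gene was read by a capture and a reporter probe of 40 to 50 bases, which bind the transcript side by side. The probes of 6 genes on which the results below turn are printed, because the counts rest on them. Capitals mark the longest run of at least 12 bases that a probe shares with a probe of another OR gene.
Olfr1314 capture probe: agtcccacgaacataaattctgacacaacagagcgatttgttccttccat
Olfr1314 reporter probe: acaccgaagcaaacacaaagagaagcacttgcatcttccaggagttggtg
Olfr74 capture probe: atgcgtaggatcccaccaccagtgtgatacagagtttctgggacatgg
Olfr74 reporter probe: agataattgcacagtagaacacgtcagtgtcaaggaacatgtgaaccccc
Olfr1180 capture probe: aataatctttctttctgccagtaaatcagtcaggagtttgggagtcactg
Olfr1180 reporter probe: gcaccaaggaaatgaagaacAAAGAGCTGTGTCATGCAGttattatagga
Olfr1213 capture probe: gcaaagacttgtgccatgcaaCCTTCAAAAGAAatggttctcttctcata
Olfr1213 reporter probe: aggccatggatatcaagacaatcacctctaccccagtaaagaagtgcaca
Olfr1156 capture probe: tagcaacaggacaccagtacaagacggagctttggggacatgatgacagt
Olfr1156 reporter probe: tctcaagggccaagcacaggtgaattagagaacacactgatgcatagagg
Olfr1275 capture probe: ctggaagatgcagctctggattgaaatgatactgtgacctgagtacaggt
Olfr1275 reporter probe: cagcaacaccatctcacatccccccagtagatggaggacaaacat
The longest run shared by any of the 134 probes of these genes with a probe of another OR gene was 20 bases, and 67 of the 134 shared fewer than 12. The reporter of Olfr1180 shared 19 bases, its positions 21 to 39 from the 5′ end, with the reporter of Olfr361. The capture probe of Olfr1213 shared 12 bases with that of Olfr1361. The capture probe of Olfr1314 is the reverse complement of the first 50 bases of the gene in RefSeq, chr2:112092650-112092699, on the minus strand of GRCm38.p6.

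The authors deposited their counts without any scaling. A lane held 618163 to 1013430 counts of OR genes in all, with a median of 814694. The background of a lane, taken as the mean of its 8 negative controls plus 2 SD, lay between 32.4 and 56.2. Levels are given as normalized counts, that is counts scaled over all 30 lanes by the positive controls and by 5 reference genes, less that background. The reference genes Omp, Cnga2, Adcy3, Gnal and Ano2, which mark mature olfactory sensory neurons, were read in every lane, with Omp at raw counts of 80769 to 135506. Differences between groups are log2 fold changes (FC) of scaled counts from limma with their SE, and a gene was called higher or lower at a Benjamini-Hochberg adjusted p of at most 0.05 over all OR genes tested. All 67 genes were counted on MK29 and MK37 and 65 on MK38, where Olfr1239 and Olfr1243 have empty cells. Groups are said not to overlap where no scaled count of one reached those of the other, before the background was subtracted, and on normalized counts this turned out differently in 6 of 264 cases. Each gene so counted passed the filter of a median of at least 100 normalized counts in the wild-type mice of a comparison.

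The 67 genes made up a smaller share of all OR counts in mice of the 129 background than in mice of the mixed background. Over OR genes read in all lanes, their share was 12.4% to 12.9% in the wild-type 129 mice with a median of 12.6%, and 12.6% to 13.9% in the ΔOlfr7Δ mice with a median of 13.2%. In the mixed background it was 14.9% to 15.6% in the MK29 wild-type mice, 14.7% to 15% in the MK37 wild-type mice and 15.5% to 17.1% in the ΔHxΔP mice. No mouse of the 129 background reached the lowest share of the mixed background. The total behind these shares includes genes that the mutants lack. The 2 backgrounds were read on different cartridges, and background, cartridge and colony cannot be told apart in any comparison across them.

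Summed over the 50 genes of the distal part read in every group, the wild-type 129 mice held 75606 to 81923 normalized counts and the ΔOlfr7Δ mice 81182 to 91855. The MK29 wild-type mice held 98835 to 105688, the ΔHxΔP mice 96445 to 107348 and the MK37 wild-type mice 103987 to 109264. The sums of the 3 mixed groups all lay above those of both 129 groups. The 15 genes of the far cluster held 15391 to 16231 in the wild-type 129 mice, 14886 to 18334 in the ΔOlfr7Δ mice, 17091 to 19444 in the MK29 wild-type mice, 17690 to 20216 in the ΔHxΔP mice and 18822 to 22195 in the MK37 wild-type mice. In the far cluster the wild-type 129 mice lay below all mixed mice too, while the ΔOlfr7Δ mice overlapped the MK29 and ΔHxΔP groups.

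**Figure D1:**
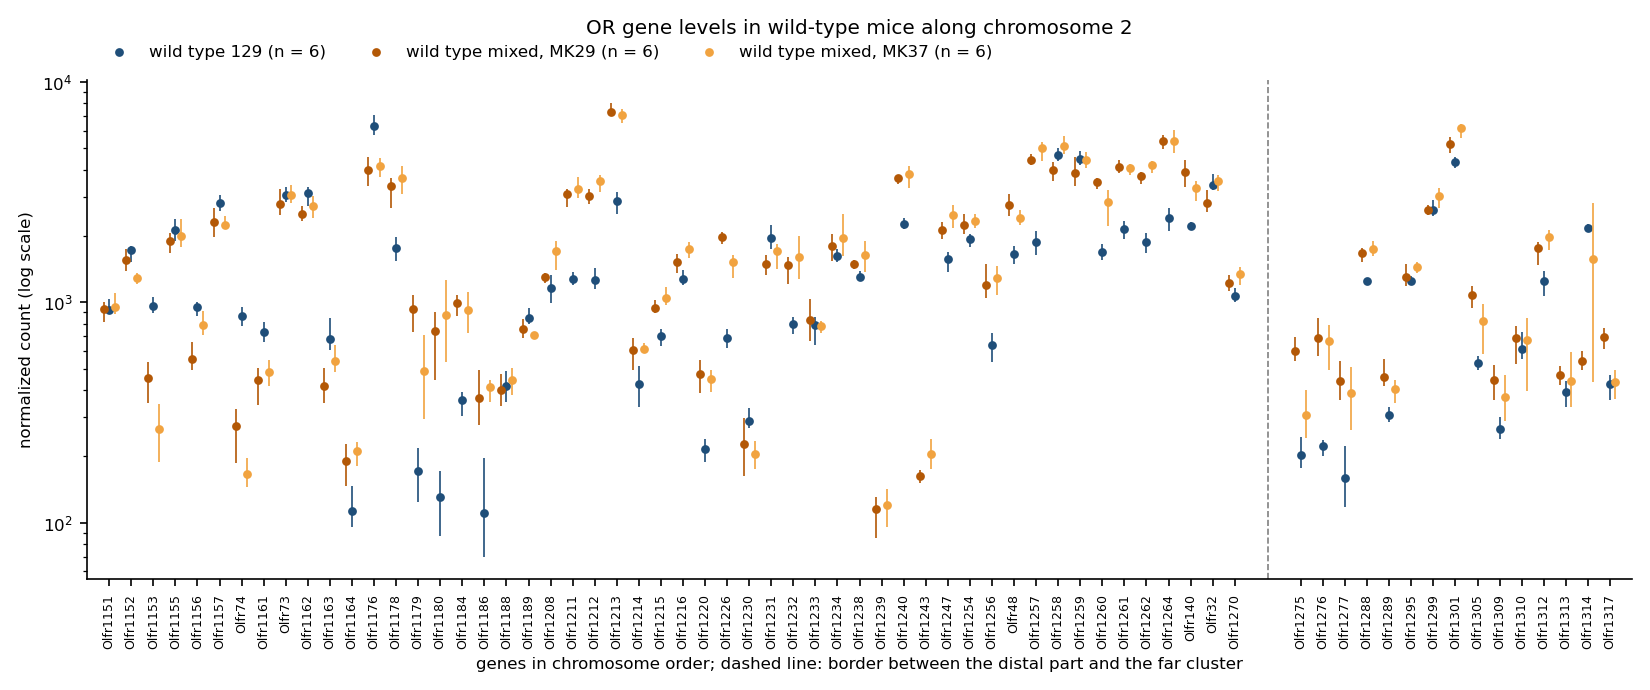
Normalized count (log scale) of each of the 67 genes in chromosome order in the 3 wild-type groups of 6 mice, with a point at the mean and a line from the lowest to the highest mouse. Many neighbouring genes from Olfr1178 on have their 129 point below both mixed points, and the dashed line marks the border between the distal part and the far cluster.

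The genes with the highest counts were not the same in both backgrounds. In the wild-type 129 mice Olfr1176 of family MOR174 had the highest mean, with counts of 5746, 6288 and 7107 in the lowest, median and highest mouse, followed by Olfr1258, Olfr1259, Olfr1301 and Olfr32. In all 3 mixed groups it was Olfr1213 of family MOR233, with 7033, 7215.5 and 8015 in the MK29 wild-type mice, against 2523, 2850 and 3160 in the wild-type 129 mice. Olfr1301 was the gene of the far cluster with the highest count in the wild-type 129 mice, at 4078 to 4551, and was among the 5 highest of all 67 in every group. At the other end, Olfr1186, Olfr1164, Olfr1180, Olfr1277 and Olfr1179 had the lowest means of the wild-type 129 mice. Olfr1186 had 70, 95 and 197 there and 278, 366 and 491 in the MK29 wild-type mice. Counts of different genes come from different probes, so that this order is one of counts and not of molecules, and neighbours in it seldom separated. In the wild-type 129 mice 3 of 64 neighbouring pairs in the order did not overlap over the 6 mice, in the ΔOlfr7Δ mice 1 of 64, in each mixed wild-type group 3 of 66 and in the ΔHxΔP mice 0 of 66.

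Between mice of 1 group, the median SD of the members on the log2 scale was 0.104 in the wild-type 129 mice, 0.124 in the MK29 and 0.121 in the MK37 wild-type mice, 0.155 in the ΔHxΔP mice and 0.169 in the ΔOlfr7Δ mice. Over all OR genes it was 0.11, 0.14, 0.121, 0.181 and 0.136 in the same order. The far cluster stood at 0.243 in the MK37 wild-type mice, where the distal part stood at 0.118. Single mice took many of the extremes: ΔOlfr7Δ mouse 4 was the lowest of its group at 29 of 65 genes and the highest at 13, and ΔHxΔP mouse 3 was the lowest of its group at 30 of 67.

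**Figure D2:**
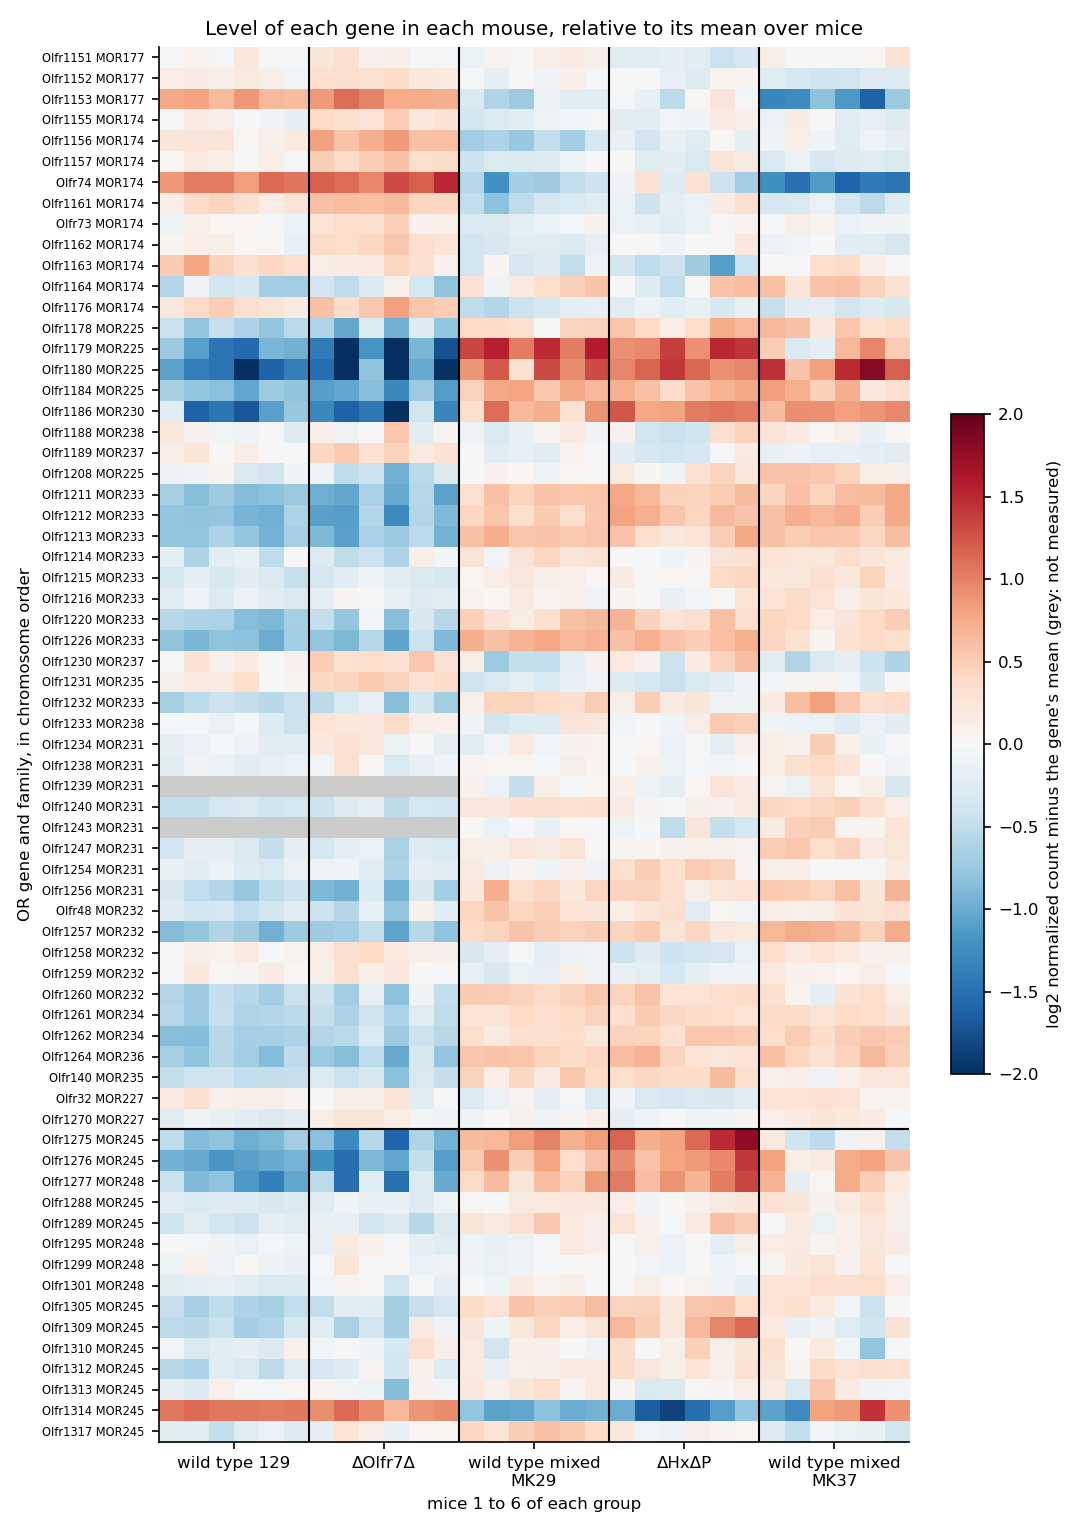
Level of each gene (1 line per gene, chromosome order) in each of the 30 mice (columns, by group) as log2 of the normalized count minus the mean of that gene over all mice, with colours ending at 2 and -2 and grey where a gene was not read. Blocks of neighbouring genes are blue in most mice of the 129 background and red in most mixed mice, and Olfr1314 differs between mice inside the MK37 group.

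The wild-type 129 mice and the 12 mixed wild-type mice differed at most of these genes, with calls at 81.5% of the 65 tested, where 70.7% of all OR genes were called. Of the 65, 40 were lower in the wild-type 129 mice, where 37.3% of all OR genes tested were called lower, and 13 were higher, where 33.5% were. The median difference was -0.39 on the log2 scale, against -0.00 over all 547 OR genes tested. The distal part had 30 lower and 12 higher of 50, with a median of -0.34. The far cluster had 10 lower and 1 higher of 15, with a median of -0.42. The other OR genes of chromosome 2, which lie before these, had 14 lower and 20 higher of 63 with a median of 0.08. The 2 groups did not overlap at 31 lower members (24.9% of all OR genes) and 4 higher ones (13.5%). Set against each mixed wild-type group alone, 38 of 65 genes were lower against both, where 32.9% of all OR genes were, and 12 were higher against both, where 26.1% were. The one gene with opposite calls was Olfr1258, higher against MK29 (0.22, adjusted p = 0.00179) and lower against MK37 (-0.13, adjusted p = 0.0318).

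Among the genes tested, neighbours in the gene order were often called the same way. With 40 of 65 genes called lower, runs arise in any order, and runs over all OR genes were not counted. The run from Olfr1234 to Olfr1257 passes over Olfr1239 and Olfr1243, which were not read on MK38. From Olfr1156 to Olfr1161, 4 neighbours were higher in the wild-type 129 mice, from Olfr1178 to Olfr1186, 5 neighbours were lower, from Olfr1208 to Olfr1226, 9 were lower, from Olfr1234 to Olfr1257, 8 were lower, and from Olfr1260 to Olfr140, 5 were lower. In the far cluster 5 neighbours from Olfr1275 to Olfr1289 and 3 from Olfr1301 to Olfr1309 were lower. Relatives lie side by side, so that a run often holds genes of 1 MOR family.

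**Figure D3:**
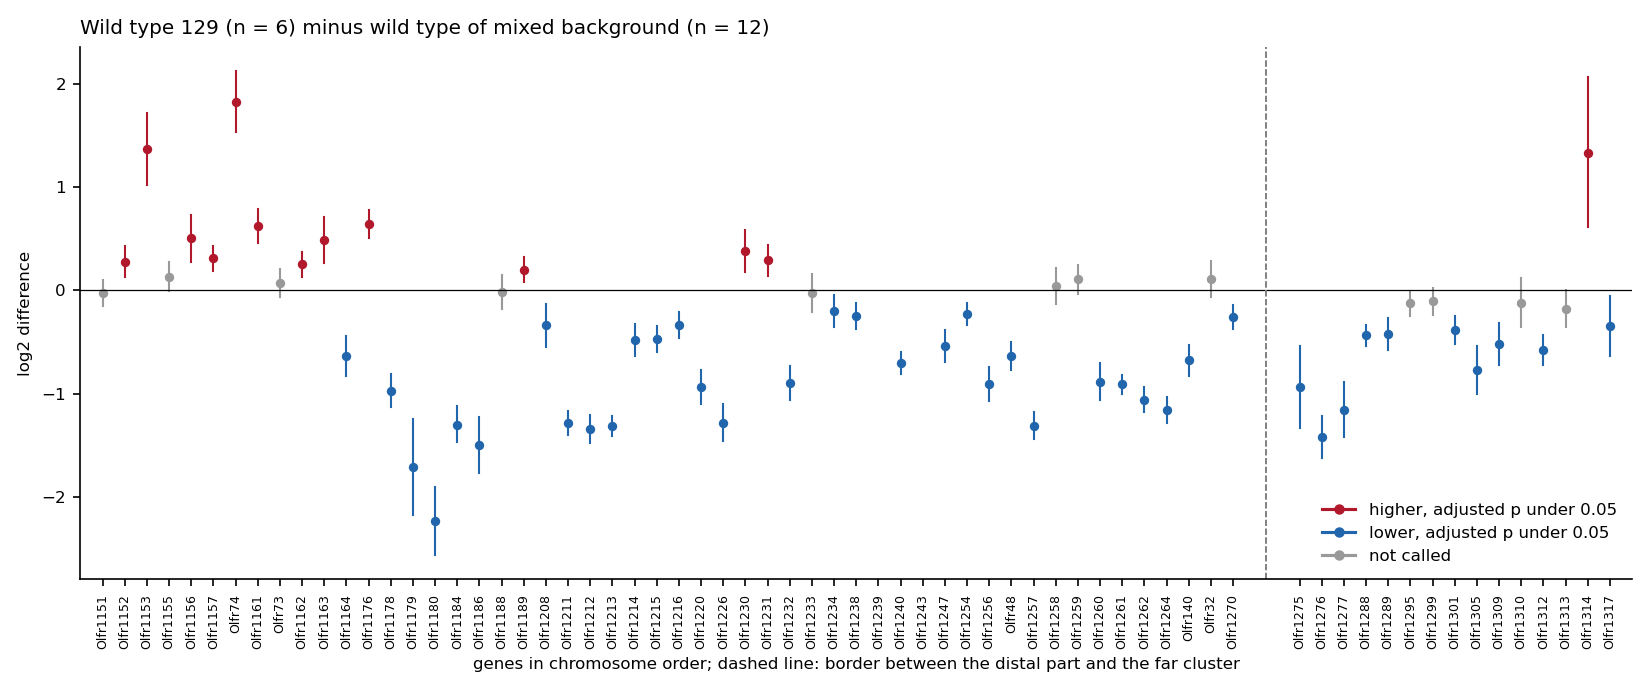
Log2 difference of wild-type 129 minus mixed wild-type mice at each of the 65 genes tested, in chromosome order, with bars for the 95% interval and colours for calls. MOR174 at the start of the distal part stands mainly above 0, most genes after it stand below 0, and Olfr1314 is the single call above 0 in the far cluster.

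Family MOR174, to which Olfr73 and Olfr74 belong, was the one family of at least 5 genes with more higher than lower calls. Of its 10 genes 7 were higher in the wild-type 129 mice and 1 lower, with a median of 0.40. Summed over the family, the wild-type 129 mice held 19131 to 22397 counts, the MK29 wild-type mice 13823 to 17463 and the MK37 wild-type mice 15449 to 17813. Olfr74, the mOR-EV receptor, had 778, 889 and 947 counts in the lowest, median and highest wild-type 129 mouse, 187, 281.5 and 326 in the MK29 wild-type mice and 145, 159.5 and 197 in the MK37 wild-type mice. All 12 mixed wild-type mice lay below the lowest wild-type 129 mouse, and the FC was 3.54 (log2 1.82, SE 0.14, adjusted p = 1.72e-10). Olfr73, the eugenol receptor of the same family, had 2856, 3095.5 and 3323 counts in the wild-type 129 mice, 2498, 2748.5 and 3263 in the MK29 and 2821, 2986.5 and 3395 in the MK37 wild-type mice. Its groups overlapped and it was not called (log2 0.07, SE 0.0633, adjusted p = 0.309). Olfr1176 was higher by 0.64 (SE 0.0657, adjusted p = 1.82e-08) and Olfr1161 by 0.62 (SE 0.0782, adjusted p = 3.94e-07), both with no overlap. Olfr1164 was the lower one, at -0.63 (SE 0.0949, adjusted p = 4.24e-06). In the small family MOR177 next to it, Olfr1153 was higher with an FC of 2.58 (log2 1.37, SE 0.168, adjusted p = 2.64e-07). It had 892, 951.5 and 1052 counts in the wild-type 129 mice, 348, 483.5 and 533 in the MK29 and 188, 251.5 and 344 in the MK37 wild-type mice. Olfr1151 of the same family did not differ by the test (-0.03, adjusted p = 0.708).

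Among families with at least 3 genes tested, MOR225 had the lowest median difference in the wild-type 129 mice. All 5 of its genes were lower, with a median of -1.30. The family summed to 3222 to 3933 counts in the wild-type 129 mice, 2360 to 3886 in the ΔOlfr7Δ mice, 6736 to 7907 in the MK29 wild-type mice, 6864 to 8899 in the ΔHxΔP mice and 6750 to 8664 in the MK37 wild-type mice. Olfr1180 had 87, 134 and 172 counts in the wild-type 129 mice and 34, 108.5 and 207 in the ΔOlfr7Δ mice. It had 443, 767.5 and 899 in the MK29 wild-type mice, 681, 755 and 954 in the ΔHxΔP mice and 537, 903 and 1264 in the MK37 wild-type mice. The 2 wild-type backgrounds did not overlap, and mixed wild-type mice stood 4.70 times as high (log2 -2.23, SE 0.159, adjusted p = 5.72e-11). That fold is of scaled counts with the lane background left in, which makes it smaller at low counts. On normalized counts Olfr1180 had means of 130.7 in the wild-type 129 mice and 807 in the mixed wild-type mice. Olfr1179, its neighbour, had 124, 178.5 and 218 counts in the wild-type 129 mice, 736, 970 and 1075 in the MK29 and 296, 513.5 and 713 in the MK37 wild-type mice (log2 -1.71, SE 0.224, adjusted p = 7.17e-07). Olfr1184 differed by -1.30 (SE 0.0842, adjusted p = 1.18e-11). The lowest values, 34 for Olfr1180 and 38 for Olfr1179, were both of ΔOlfr7Δ mouse 4, about as many counts above background as the background itself. The next lowest mouse of its group, mouse 2, had 74 and 89. The levels of Olfr1180 and Olfr1179 in the 129 background are therefore less precise than those of genes with high counts. Olfr1186, Olfr1164 and Olfr1277 had similarly low means there, at 111, 113.2 and 159.5 in the wild-type 129 mice.

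Family MOR233 was lower as a whole. All 9 of its genes were lower in the wild-type 129 mice, 7 without overlap, with a median of -0.94. Its sum was 8824 to 9948 counts in the wild-type 129 mice, 8699 to 10923 in the ΔOlfr7Δ mice, 19723 to 21320 in the MK29 wild-type mice, 18089 to 22076 in the ΔHxΔP mice and 20038 to 21763 in the MK37 wild-type mice. Olfr1213 differed by -1.31 (SE 0.0501, adjusted p = 2.06e-15), so that mixed wild-type mice stood 2.48 times as high, and it had the smallest p of all members. Olfr1211 had 1199, 1272.5 and 1370 counts in the wild-type 129 mice, 2693, 3192.5 and 3259 in the MK29 and 2957, 3322 and 3696 in the MK37 wild-type mice (log2 -1.28, adjusted p = 1.62e-14). Olfr1212 differed by -1.34 (adjusted p = 1.19e-13). Inside the family the difference was uneven, and Olfr1216 differed by -0.34 (SE 0.0605, adjusted p = 4.5e-05).

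The other families of the distal part leaned the same way, with exceptions. Of MOR231 all 6 genes tested were lower, with a median of -0.39 and Olfr1256 at -0.91 (adjusted p = 1.4e-09). Of MOR232, Olfr1257, Olfr1260 and Olfr48 were lower and Olfr1258 and Olfr1259 were not called. Olfr1257 had 1635, 1897.5 and 2097 counts in the wild-type 129 mice, 4189, 4413 and 4705 in the MK29 and 4351, 5102 and 5312 in the MK37 wild-type mice, without overlap (log2 -1.31, SE 0.0628, adjusted p = 6.38e-14). Olfr1259, next but one to it, had 4201, 4329 and 4871 against 3373, 3776.5 and 4564 and 4080, 4421 and 4817, which overlapped (log2 0.11, SE 0.0672, adjusted p = 0.162). Olfr1261 and Olfr1262, the pair of MOR234, were lower at -0.91 and -1.06, and Olfr1264 of MOR236 at -1.16 (adjusted p = 1.24e-13). Against this lean, Olfr1189 and Olfr1230, the pair of MOR237, were higher at 0.20 (adjusted p = 0.00442) and 0.38 (adjusted p = 0.00169), and so was Olfr1231 of MOR235 at 0.29 (adjusted p = 0.00125).

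In the far cluster 8 of the 11 genes of MOR245 and 2 of the 4 of MOR248 were lower in the wild-type 129 mice. Olfr1276 had 200, 224 and 237 counts there, 570, 656 and 852 in the MK29 and 491, 708.5 and 788 in the MK37 wild-type mice, with no overlap (log2 -1.42, SE 0.099, adjusted p = 4.29e-11). Olfr1277, of MOR248, had 117, 155 and 222 against 358, 438 and 542 and 263, 383.5 and 506 (log2 -1.15, SE 0.127, adjusted p = 5.71e-08). Olfr1288 differed by less but without overlap, at -0.43 (SE 0.0484, adjusted p = 7.14e-08). The far cluster therefore carried both large and small differences, and in 14 of 15 genes the value was below 0.

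Olfr1314, a gene of MOR245 near the end of the far cluster at chr2:112091761-112092699 on the reverse strand (GRCm38.p6), had the largest spread between mixed wild-type mice of all 67, with a pooled SD of 0.773 on the log2 scale, followed by Olfr1180 at 0.402. It had 2140, 2157 and 2273 counts in the lowest, median and highest wild-type 129 mouse and 1644, 2000 and 2294 in the ΔOlfr7Δ mice. In the MK29 wild-type mice it had 494, 532.5 and 603, and in the ΔHxΔP mice 288, 425.5 and 607. The 6 MK37 wild-type mice had 497, 435, 1817, 1890, 2830 and 1957 counts from mouse 1 to mouse 6. Mice 1 and 2 lay within or below the range of the MK29 wild-type mice, mice 3, 4 and 6 within the range of the ΔOlfr7Δ mice, and mouse 5 above all other mice. Wild-type 129 mice stood 2.52 times as high as the 12 mixed wild-type mice (log2 1.33, SE 0.348, adjusted p = 0.00188). Against MK29 alone the difference was 1.92 (adjusted p = 5.51e-18) and against MK37 alone 0.75 (adjusted p = 0.0516), which does not pass.

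**Figure D4:**
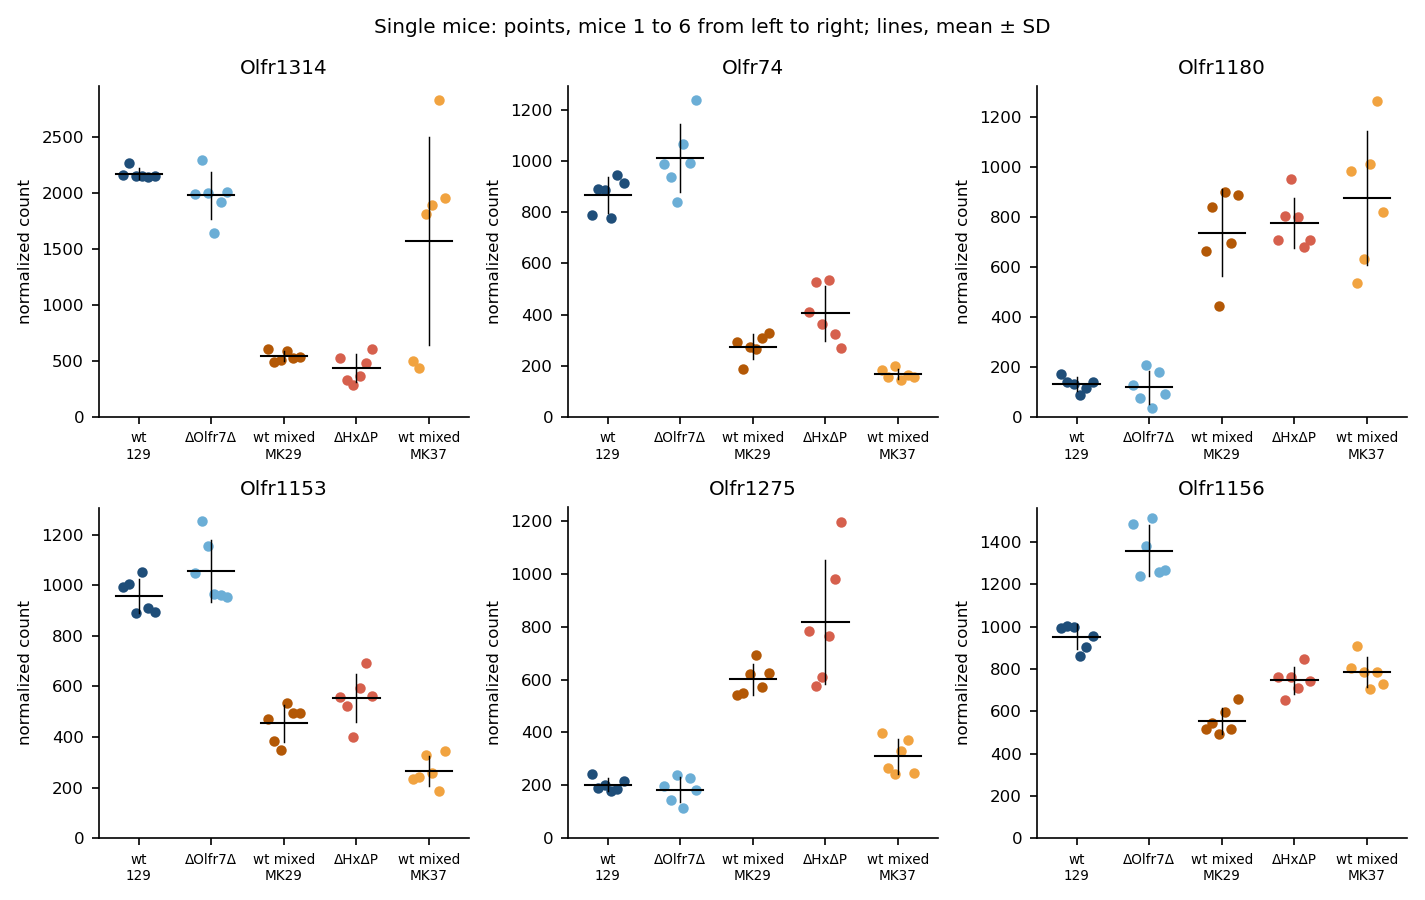
Normalized count (linear axis from 0) of each mouse as a point, by group, with lines at the mean and over 1 SD to each side, for Olfr1314, Olfr74, Olfr1180, Olfr1153, Olfr1275 and Olfr1156. Olfr1314 has 2 of the 6 MK37 wild-type mice at 435 and 497 and the other 4 at 1817 to 2830, while Olfr74 and Olfr1180 set the 129 background apart from the mixed one.

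The comparison of ΔOlfr7Δ with wild-type 129 mice asks whether the loss of the Olfr7 cluster goes with a change at OR genes elsewhere. Here 16 of 65 members were higher in the mutants, where 23.2% of all OR genes tested were, and 3 were lower, where 11.9% were. In either direction 29.2% were called, against 35.1% of all OR genes. Their median difference was 0.05, against 0.06 over all 555 OR genes. The distal part had 14 higher and 3 lower of 50, and the far cluster 2 higher and 0 lower of 15 by limma, with 1 lower at an unadjusted p under 0.05. The other OR genes of chromosome 2 had 30 higher and 1 lower of 64, with a median of 0.18. The groups did not overlap at 5 higher members (11% of all OR genes) and 0 lower ones (7.21%). With tTREAT, the test against an FC above 1.3, 0 of 65 members passed at an unadjusted p of 0.01, where 7.03% of all OR genes did. The smallest p of a member was 0.0695 at Olfr1156. All OR genes include those of the deleted Olfr7 cluster, and nearly all of the 39 genes that the paper called at this threshold lay in it. The shares over all OR genes, here and in the next paragraph, are therefore no measure of the genes that were not deleted, above all for lower calls. The wild-type 129 mice were bought and the mutants came from a colony, which cannot be told apart from the genotype.

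Of the higher members 7 were of MOR174. That family had 7 higher and 1 lower of 10, with a median of 0.26, and 4 of the 5 without overlap were of this family. Olfr1156 had 863, 974.5 and 1003 counts in the wild-type 129 mice and 1239, 1324.5 and 1511 in the ΔOlfr7Δ mice, all above them (FC 1.40, log2 0.48, SE 0.069, adjusted p = 2.08e-06). Olfr1157 had 2603, 2832 and 3064 against 3424, 3623.5 and 4029 (log2 0.36, SE 0.0621, adjusted p = 3.21e-05), and Olfr1162 had 2732, 3155.5 and 3339 against 3638, 3953.5 and 4415 (log2 0.34, SE 0.0632, adjusted p = 0.000116). Olfr1155 differed by 0.33 (SE 0.0681, adjusted p = 0.000349) and the eugenol receptor Olfr73 by 0.27 (SE 0.0687, adjusted p = 0.0026). Olfr74 had 842, 991.5 and 1239 counts in the mutants and was not called (0.20, adjusted p = 0.0527). The fifth gene without overlap was Olfr1233 of MOR238, at 0.34 (SE 0.0765, adjusted p = 0.000822). Summed over MOR174, the mutants held 24042 to 29090 counts, above all wild-type 129 mice. When lanes were scaled by the positive controls alone the median of all OR genes rose to 0.24, and 34 members were higher and 0 lower, where 51.2% and 7.41% of all OR genes were. With the median of ratios 11 members were higher and 6 lower, where 18% and 18.6% of all OR genes were.

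The 3 lower members were Olfr1163, Olfr1179 and Olfr1208. Olfr1179 had 38, 123.5 and 192 counts in the mutants against 124, 178.5 and 218, which overlapped (log2 -0.49, SE 0.165, adjusted p = 0.0212), and it was no longer called without ΔOlfr7Δ mouse 4 (-0.32, adjusted p = 0.0525). It was also lost without wild-type 129 mouse 1 (-0.44, adjusted p = 0.0543). Olfr1163 of MOR174 had 521, 552.5 and 651 against 608, 660 and 846 (log2 -0.25, SE 0.0816, adjusted p = 0.0176), and it was lost without wild-type 129 mouse 2 (-0.19, adjusted p = 0.0578). In the far cluster Olfr1317 at 0.25 (adjusted p = 0.021) and Olfr1312 at 0.22 (adjusted p = 0.0423) were the higher calls. Olfr1317 was lost without wild-type 129 mouse 3 (0.21, adjusted p = 0.0665) or ΔOlfr7Δ mouse 2 (0.20, adjusted p = 0.0666). Olfr1312 was lost without any 1 of wild-type 129 mouse 1, 2 or 5 or ΔOlfr7Δ mouse 3 or 5, with values of 0.17 to 0.20.

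The ΔHxΔP mice were compared with the 12 mixed wild-type mice as 1 group. Of 67 members 11 were higher, where 10.3% of all OR genes tested were, and 9 were lower, where 23.9% were. The split moved with the setting. It was 17 higher and 5 lower with TMM, where 20.7% and 19.6% of all OR genes were called, and 12 and 3 with positive controls alone, where 11.3% and 15.8% were. It was 8 and 4 against MK29 alone, where 9.76% and 17% were, and 16 and 16 against MK37 alone, where 12.8% and 32.6% were. With sex as covariate it was 8 and 6, where 7.55% and 19.1% of all OR genes were called. With cartridge as covariate it was also 8 and 6, where 13.3% and 19.4% were. The median was -0.01, against -0.06 over all 556 OR genes. The distal part had 7 higher and 9 lower of 52, while the far cluster had 4 higher and 0 lower of 15 by limma, with 2 lower at an unadjusted p under 0.05. In either direction 29.9% of members were called, against 34.2% of all OR genes. The groups did not overlap at 0 higher members (1.26% of all OR genes) and 1 lower one (7.91%). With tTREAT at an FC of 1.5, 0 of 67 members passed, where 4.14% of all OR genes did, with the smallest p of 0.162 at Olfr74. Most of the 23 genes that the paper called at this threshold lay in the H and P clusters. The shares over all OR genes in this comparison, here and below, include those clusters and are no measure of the genes outside them. This comparison, that of the mixed groups with each other and that with wild-type 129 mice share the mixed wild-type mice.

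Several calls rested on the choice of wild-type group, while Olfr74 was called higher with each choice. Olfr74 had 269, 386.5 and 536 counts in the ΔHxΔP mice and was higher against both groups together (FC 1.70, log2 0.76, SE 0.167, adjusted p = 0.00143), against MK29 alone (0.46, adjusted p = 0.0354) and against MK37 alone (1.06, adjusted p = 2.75e-05). Olfr1153, with 402, 560.5 and 692 in the ΔHxΔP mice, was higher against both together (0.61, SE 0.18, adjusted p = 0.0126) and against MK37 (0.96, adjusted p = 6.04e-05), but not against the wild-type mice of its own cartridge (0.26, adjusted p = 0.137). In the same way Olfr1275, the first gene of the far cluster, had 575, 772.5 and 1196 counts in the ΔHxΔP mice, 543, 595.5 and 692 in MK29 and 242, 298.5 and 398 in MK37 wild-type mice. It was higher against both together (FC 1.77, log2 0.82, SE 0.212, adjusted p = 0.00541) and against MK37 (1.27, adjusted p = 2.16e-05), and against MK29 it did not pass (0.38, adjusted p = 0.0606). Olfr1317, the last gene of the far cluster, was lower against MK29 (-0.39, adjusted p = 0.00284) and higher against MK37 (0.26, adjusted p = 0.0241). Olfr1314 did not pass against both together (-0.93, SE 0.366, adjusted p = 0.0537), nor against MK29 (-0.34, adjusted p = 0.0843), and was lower against MK37 (-1.52, adjusted p = 0.00451). Without any 1 of MK29 mice 2, 3, 5 or 6 or MK37 mice 1 or 2 it passed against both together, and its values over all mice left out were -1.02 to -0.77.

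Against each wild-type group taken alone, 5 of 67 genes were higher both times, where 5.07% of all OR genes were, and 2 were lower both times, where 12.7% were. The higher ones were Olfr74, Olfr1162, Olfr1254, Olfr1277 and Olfr1309. Olfr1309 of the far cluster had 443, 602 and 841 counts in the ΔHxΔP mice, 359, 449 and 518 in the MK29 and 289, 354.5 and 467 in the MK37 wild-type mice, which overlapped (log2 0.57, SE 0.124, adjusted p = 0.00147). Olfr1254 of MOR231 had 2290, 2939.5 and 3148 against 2043, 2200 and 2506 and 2175, 2318 and 2509 (log2 0.32, SE 0.066, adjusted p = 0.000836). The lower ones were Olfr1151 and Olfr1240. Olfr1151, the first gene of the distal part, had 669, 759 and 790 counts in the ΔHxΔP mice against 816, 951.5 and 1005 and 885, 913.5 and 1099, and was the single member without overlap (log2 -0.32, SE 0.0615, adjusted p = 0.000416). Olfr1240 differed by -0.23 (SE 0.051, adjusted p = 0.00186).

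**Figure D5:**
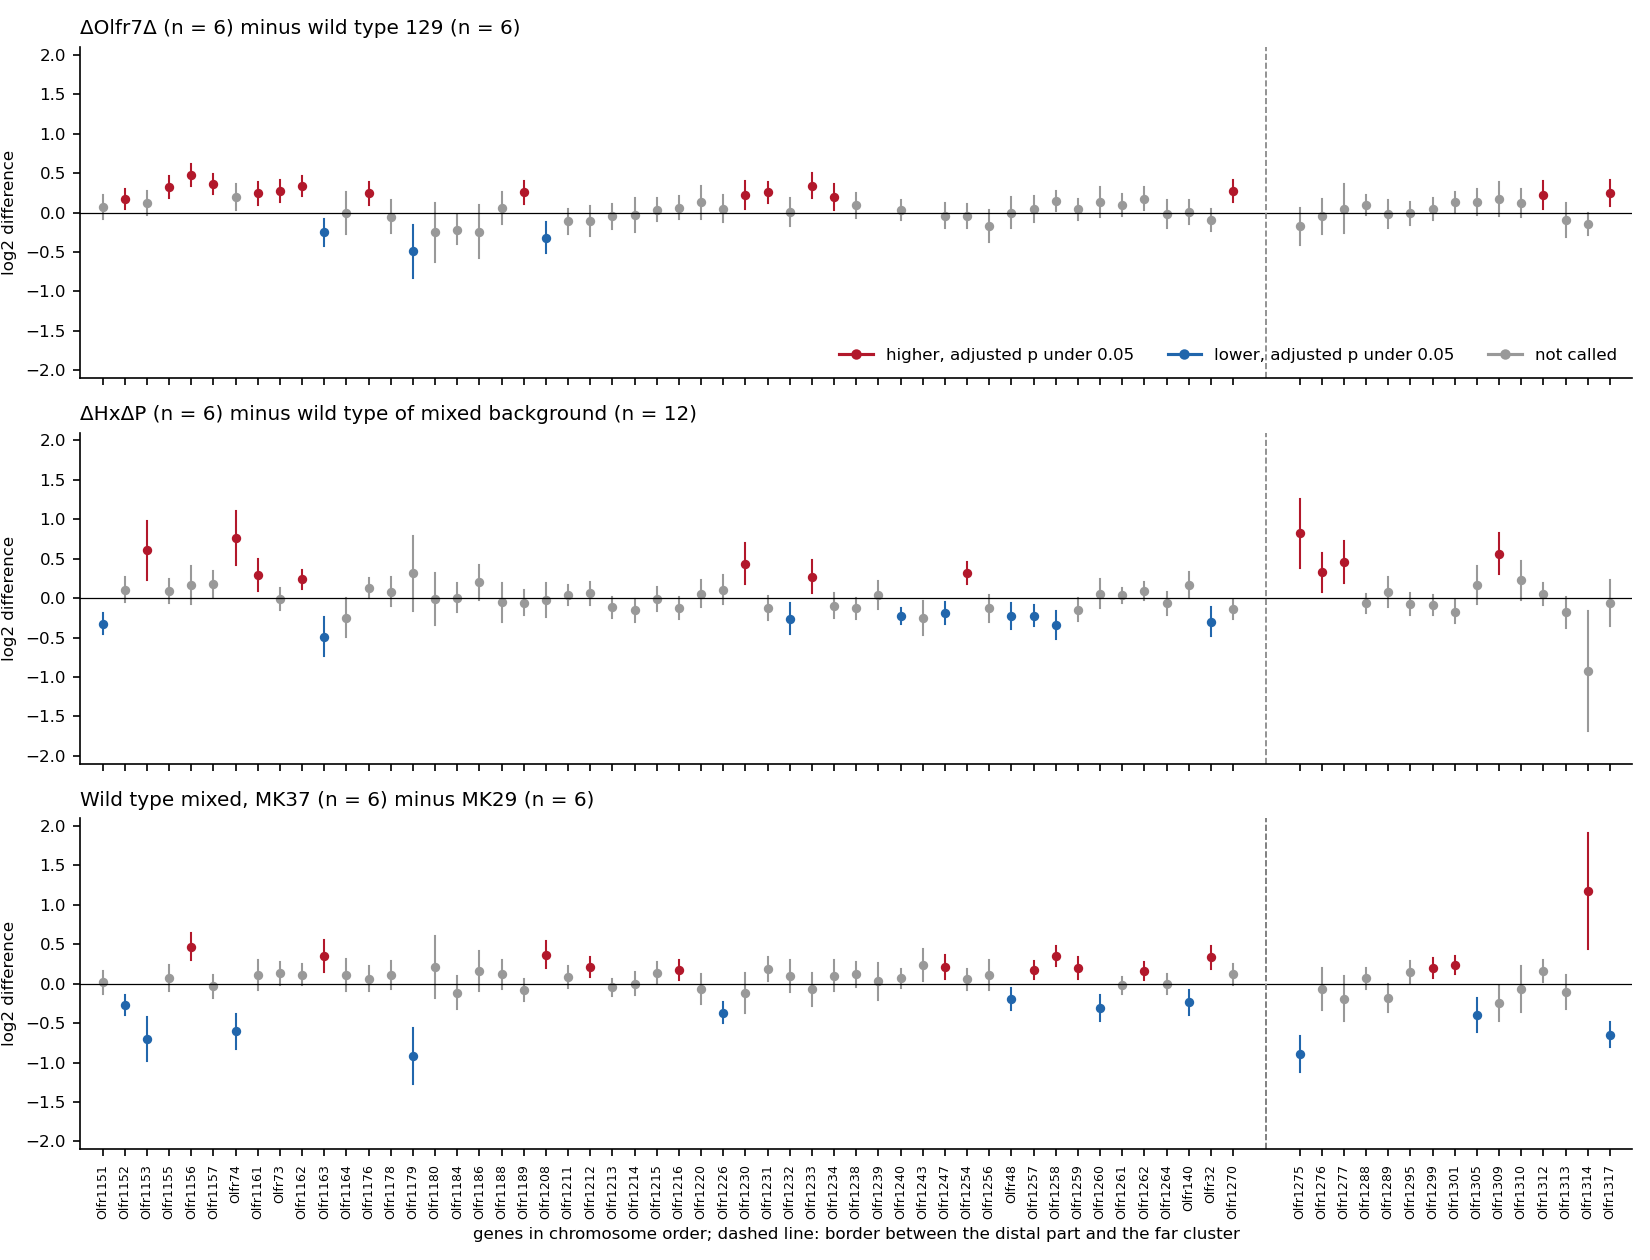
Log2 differences at each gene in chromosome order with 95% intervals for ΔOlfr7Δ minus wild-type 129 mice, ΔHxΔP minus mixed wild-type mice, and MK37 minus MK29 wild-type mice, coloured by call. Most values lie close to 0, and Olfr1314 has the longest intervals where MK37 mice take part.

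The 2 mixed wild-type groups, companions of different mutant strains, also differed from each other. In the MK37 mice 14 of 67 members were higher than in the MK29 mice, where 29.3% of all OR genes tested were, and 11 were lower, where 10.8% were. In either direction 37.3% were called, against 40.1% of all OR genes. The median was 0.07, against 0.10 over all OR genes. The distal part had 11 higher and 8 lower, and the far cluster 3 higher and 3 lower. The groups did not overlap at 3 higher members (14.6% of all OR genes) and 7 lower ones (5.58%). Colony and cartridge cannot be told apart here. The split between higher and lower depended on the scaling: with TMM or the median of ratios over the OR genes, the first of which put the median of all OR genes at 0.01, 6 members were higher and 14 lower, where 20.5% and 19.4% of all OR genes were with TMM and 20.1% each with the median of ratios.

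The first and last genes of the far cluster were among the members with the smallest p. Olfr1275 was lower in the MK37 mice without overlap (log2 -0.89, SE 0.109, adjusted p = 1.21e-05), so that MK29 mice stood 1.86 times as high. Olfr1317, at the other end of the far cluster, had 364, 442 and 490 counts in the MK37 and 613, 700.5 and 765 in the MK29 mice (log2 -0.65, SE 0.0771, adjusted p = 1e-05). Olfr1179 was lower by -0.91 (SE 0.169, adjusted p = 0.000459), without overlap. Olfr74 was lower by -0.60 (SE 0.107, adjusted p = 0.000325), without overlap on scaled counts. Its normalized counts, 145 to 197 in the MK37 and 187 to 326 in the MK29 mice, did overlap. Olfr1153 was lower by -0.70 (SE 0.131, adjusted p = 0.00047). In the other direction Olfr1314 was higher with an FC of 2.26 (log2 1.17, SE 0.349, adjusted p = 0.0126), at 0.95 to 1.46 when each mouse was left out in turn, and the groups overlapped. Olfr1156 had 707, 785 and 910 counts in the MK37 against 493, 531 and 659 in the MK29 mice, without overlap (log2 0.47, SE 0.0811, adjusted p = 0.000255). Olfr1258 was higher by 0.35 (SE 0.0603, adjusted p = 0.000255), also without overlap. Within MOR232 all 5 genes were called, with Olfr1257, Olfr1258 and Olfr1259 higher and Olfr48 and Olfr1260 lower.

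RefSeq windows of 300 bases, from 250 before to 50 after a start position, were matched for 59 of the 67 members. In some genes that position lies inside the gene as RefSeq annotates it. The reverse-strand gene Olfr1211 runs from 88934526 down to 88929378, and its window printed below lies between them. Those of Olfr32, Olfr1234, Olfr1258 and Olfr1275 lie inside their genes too. The windows of 4 genes called between the wild-type backgrounds, each of another MOR family, are printed (GRCm38.p6, 5′ to 3′ on the strand of the gene). Capitals mark TAATTA, the core that homeodomain factors such as Lhx2 bind and that is known from OR promoters.
Olfr1153, chr2:87895927-87896226, + strand: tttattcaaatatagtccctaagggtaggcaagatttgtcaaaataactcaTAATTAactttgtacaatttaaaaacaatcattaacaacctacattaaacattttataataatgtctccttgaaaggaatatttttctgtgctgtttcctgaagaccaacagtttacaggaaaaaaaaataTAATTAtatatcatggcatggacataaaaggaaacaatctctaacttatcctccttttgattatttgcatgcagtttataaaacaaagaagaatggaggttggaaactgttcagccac
Olfr1157, chr2:87968208-87968507, - strand: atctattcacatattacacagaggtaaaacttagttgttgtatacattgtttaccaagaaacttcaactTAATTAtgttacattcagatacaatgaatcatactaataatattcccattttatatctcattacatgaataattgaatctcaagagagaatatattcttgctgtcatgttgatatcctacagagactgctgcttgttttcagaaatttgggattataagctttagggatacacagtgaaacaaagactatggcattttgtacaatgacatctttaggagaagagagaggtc
Olfr1211, chr2:88930264-88930563, - strand: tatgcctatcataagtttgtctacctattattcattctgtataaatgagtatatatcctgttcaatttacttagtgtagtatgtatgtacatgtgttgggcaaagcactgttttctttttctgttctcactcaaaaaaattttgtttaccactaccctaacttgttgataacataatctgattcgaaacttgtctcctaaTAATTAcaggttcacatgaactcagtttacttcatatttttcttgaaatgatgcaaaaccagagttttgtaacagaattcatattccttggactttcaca
Olfr1314, chr2:112092650-112092949, - strand: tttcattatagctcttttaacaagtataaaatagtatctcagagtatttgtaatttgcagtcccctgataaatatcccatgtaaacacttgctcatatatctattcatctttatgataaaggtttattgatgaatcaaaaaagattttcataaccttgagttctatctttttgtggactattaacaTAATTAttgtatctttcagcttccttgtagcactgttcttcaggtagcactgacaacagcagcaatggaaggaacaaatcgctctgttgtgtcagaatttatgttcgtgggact
TAATTA, which reads the same on both strands, was found in 18 of the 59 windows (30.5%), in 13 of 45 (28.9%) in the distal part and in 5 of 14 (35.7%) in the far cluster. It was in 18.6% of 948 windows of genes named Olfr and in 5.29% of all 32851 windows. The printed windows all hold TAATTA, unlike most of the 59, and that of Olfr1153 holds 2 copies. The core of the Olf1/Ebf site, TCCCNNGGGA, was in 0 of the 59 windows, in 0.527% of the Olfr windows and in 0.904% of all windows. These are matches of letters near the start position used. For Olfr1211 the window lies after the annotated start of the gene and does not hold the bases before that start. For a gene annotated without its upstream exon, such as Olfr1314, the window lies at the start of the coding sequence, so that the promoter itself may be outside it.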

How the data were processed

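The authors deposited raw counts of NanoString CodeSet Gorilla, neither scaled nor corrected for background, in 1 table of 564 OR genes, 6 positive controls, 8 negative controls and 5 reference genes. Some cells are empty, and 555 OR genes have values on MK38 and 558 on MK29 and MK37. Every column of counts belongs to 1 of the 30 labelled mice. Groups, cartridge and sex come from the sample labels. OR positions and MOR names come from the naming table of the study. The sources used here do not give its genome build. RefSeq positions and windows are of GRCm38.p6 and were matched by symbol for 67 members. In that build 47 members start 159843 bases later than in the naming table, and the 2 sets of positions were not mixed. No protein sequences were used here.

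For each comparison the lanes were scaled first to their positive controls and then to the reference genes, by geometric means. Normalized counts had the background of the lane (mean of the negative controls plus 2 SD) subtracted, as the methods of the study state, with levels scaled over all 30 lanes together. limma 3.58.1 in R 4.3.3, with a mean-variance trend, was fitted to log2(scaled count + 1). OR genes entered with a median of at least 100 in wild-type mice, and p-values were adjusted over all OR genes tested. tTREAT was rewritten from the methods with τ of 1.3 or 1.5 and an unadjusted p of 0.01. The design also named a count model as an alternative, which was left out because empty cells kept the table from being treated as plain counts. The counts are of single mice, 1 lane each, so that p-values rest on the spread between mice within the groups fitted. In fits that took the 2 mixed wild-type groups as 1, without a cartridge term, this spread also holds the difference between those groups. Each group of mice was read on 1 cartridge, so that the p-values do not rest on replicate cartridges or colonies of a group. Sequence searches used Python 3.11.15, and matplotlib 3.10.9 drew the figures.

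The fit was tested on simulated data with known changes in each comparison. The simulated lanes were scaled by the factors used to make them, with independent noise and no shift between cartridges or colonies. The test therefore cannot show how far scaling, cartridge or colony moved the calls in the real data. In ΔOlfr7Δ against wild-type 129 mice (555 genes) it found 93 of 100 genes changed by an FC of 1.3 and 100 of 100 changed by 1.5, and called 5 of 355 unchanged genes. In ΔHxΔP against mixed wild-type mice (556 genes) it found 86 and 95 and called 6 of 356, between the mixed groups (556 genes) 83 and 95 and 5 of 356, and between the backgrounds (547 genes) 94 and 95 and 4 of 347.

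Genes named are the ends of both stretches, the 5 highest and 5 lowest in wild-type 129 mice, the 8 smallest p of each comparison and the 3 smallest in the far cluster, the 6 members that varied most (SD) among mixed wild-type mice and the 3 genes with a receptor name of their own. Others, such as Olfr1161, Olfr1256 and those listed to complete a family, were chosen after their values were seen. The members and lists were chosen with earlier results of these data known. Alternatives were TMM, the median of ratios and the positive controls alone as scalings, background subtraction, no filter, a pseudocount of 10, sex or cartridge as covariate, either mixed wild-type group alone, the lane number as a block and each mouse left out in turn.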

Additional observations from a re-analysis of the deposited data

Results flagged for a closer look

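For the 41 genes named, each group of 6 mice was searched for a mouse whose gap to the nearest other, divided by the range of the group, passed Dixon's 95% critical value. Of 205 pairs of gene and group 11 passed (5.37%), about the 1 in 20 that chance gives. Among wild-type 129 mice, mouse 2 had 2273 counts of Olfr1314 where the others had 2140 to 2164 (ratio 0.82), mouse 6 had 2732 of Olfr1162 where the others had 3125 to 3339 (0.647), and mouse 2 had 3832 of Olfr32 where the others had 3218 to 3443 (0.634). The wide split of Olfr1314 in the MK37 mice did not pass, since it lies between groups of mice and not at a single one. Among ΔOlfr7Δ mice, mouse 5 had 176 counts of Olfr1186 against 48 to 93 (0.648) and mouse 4 had 1443 of Olfr1254 against 1892 to 2121 (0.662). Among MK29 wild-type mice, mouse 2 had 8015 of Olfr1213 against 7033 to 7287 (0.741) and 1472 of Olfr1312 against 1763 to 1885 (0.705). Among ΔHxΔP mice, mouse 6 had 3567 of Olfr1162 against 2906 to 3058 (0.77). Among MK37 wild-type mice, mouse 2 had 2467 of Olfr1157 against 2148 to 2264 (0.636), mouse 3 had 1281 of Olfr1226 against 1513 to 1645 (0.637) and mouse 5 had 1408 of Olfr1231 against 1678 to 1836 (0.631).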

How the results depend on the processing

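Between wild-type 129 and mixed wild-type mice, 12 to 17 members were higher and 39 to 42 lower under the other settings run. Of all OR genes 23.7% to 39.6% were higher and 35.9% to 43% lower under these settings. In ΔOlfr7Δ against wild-type 129 mice the lower calls were 6 with the median of ratios (18.6% of all OR genes) and 0 with positive controls alone (7.41%). Positive controls alone gave 34 higher calls (51.2% of all OR genes), put 2 members past tTREAT and turned Olfr1314 from -0.14 to 0.035. The share of all OR genes past tTREAT was not counted there. In ΔHxΔP against mixed wild-type mice TMM gave 17 higher and 5 lower calls (20.7% and 19.6% of all OR genes). Lower calls were also 5 with the median of ratios (19.6%), 3 with positive controls alone (15.8%), 4 against MK29 alone (17%) and 16 against MK37 alone (32.6%). Sex or cartridge as covariate each left 8 higher and 6 lower calls there (7.55% and 19.1% of all OR genes with sex, 13.3% and 19.4% with cartridge). Between the mixed groups TMM and the median of ratios each gave 6 higher calls (20.5% and 20.1% of all OR genes), and positive controls alone gave 7 lower ones (5.76%). The share of member calls that were higher moved from 55% to 77.3% with TMM and 80% with positive controls in the ΔHxΔP comparison, and from 56% to 30% with TMM or the median of ratios and 74.1% with positive controls between the mixed groups. With each mouse left out in turn, higher and lower calls ranged from 12 to 19 and 2 to 5 (ΔOlfr7Δ; 5 without mutant mouse 3 and 2 without wild-type 129 mouse 1), 8 to 12 and 7 to 13 (ΔHxΔP), 13 to 17 and 10 to 12 (mixed groups) and 13 to 14 and 38 to 42 (backgrounds). Shares over all OR genes were not counted for the runs without 1 mouse. The lane number as a replicate block between the mixed groups gave 13 higher and 10 lower calls, where 27.3% and 9.89% of all OR genes were. The correlation of deviations of same-numbered mice ran from -0.181 to 0.155, so the numbers only name the mice. The calls over all OR genes moved with the scaling too. Between the mixed groups 29.3% of all OR genes were higher as reported, 20.5% with TMM and 38.8% with positive controls alone. The median of all OR genes was 0.097, 0.009 and 0.186 in the same order. The cause of these moves was not tested. The edgeR fit of raw counts was not run. The 6 mice of a group and a background of up to 56.2 counts limit what can be seen at the lowest genes.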
